A study of Mus musculus with 24 samples.

Results

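The genes for the receptors of interleukin-12 and interleukin-18 were Il12rb1, Il12rb2, Il18r1 and Il18rap, chosen by name from the 24421 genes of the count table. All 4 were found and all 4 passed the filter on low counts in every fit. The cells were T cells of marrow, separated by cell sorting into CD8 and CD4 cells, from female CByB6F1 mice that had bone marrow failure (BMF), a disease in which T cells attack the marrow, and were 2 to 5 months old. The mice were untreated or received cyclosporine, which inhibits calcineurin (CSA), ruxolitinib at a low dose, which inhibits the kinases JAK1 and JAK2 (RUX), or both drugs (RUX+CSA), and every group, untreated included, carried the disease, so no healthy marrow was compared. All comparisons of a cell type with untreated mice share the same 3 untreated libraries. Each of the 8 groups of cell type and treatment had 3 libraries, and each library was a pool of 2 to 3 mice, here named by group and pool number. The RNA is of all cells in the sort gate, so fewer receptor-bearing cells and less receptor RNA per cell cannot be told apart.

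IL-12 is bound by a pair of chains. Il12rb1 encodes the chain shared with the IL-23 receptor, which is coupled to TYK2, and Il12rb2 encodes the chain that is particular to IL-12 in this pair and is coupled to JAK2 and STAT4. Il18r1 encodes the ligand-binding chain of the IL-18 receptor and Il18rap its accessory chain, which signal through MyD88 and IRAK kinases to NF-kappa-B. In T cells and NK cells, IL-12 and IL-18 are known to act together in inducing interferon-gamma, a cytokine implicated in marrow destruction in this disease, and ruxolitinib blocks the JAK2 step while cyclosporine blocks NFAT signalling downstream of the T cell receptor.

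In the mm10 coordinates of the count table, Il12rb1 spans chromosome 8, 70808449 to 70821423, on the plus strand, and Il12rb2 spans chromosome 6, 67292018 to 67376137, on the minus strand. Il18r1 (40465552 to 40500854) and Il18rap (40515362 to 40551705) are neighbours on the plus strand of chromosome 1, with 14507 bases between them. They close a row of receptor genes of the same family, Il1r2, Il1r1, Il1rl2 and Il1rl1, and Il18r1 begins 137 bases after the end of Il1rl1. The 3 receptor genes whose levels went together across libraries are Il12rb2, Il18r1 and Il18rap, and sequences before a start of each are shown for that reason, from the RefSeq promoter table, which matched 0 windows to Il12rb1, 1 to Il12rb2, 3 to Il18r1 and 1 to Il18rap (GRCm38.p6, bases before an annotated start, exon bases left out, 5′ to 3′ on the gene's strand). Capitals mark matches to a STAT motif (TTCNNNGAA) and to a short T-box motif (GTGTGA, which reads TCACAC on the opposite strand).
Il12rb2, chr6:67376189-67376438, minus strand: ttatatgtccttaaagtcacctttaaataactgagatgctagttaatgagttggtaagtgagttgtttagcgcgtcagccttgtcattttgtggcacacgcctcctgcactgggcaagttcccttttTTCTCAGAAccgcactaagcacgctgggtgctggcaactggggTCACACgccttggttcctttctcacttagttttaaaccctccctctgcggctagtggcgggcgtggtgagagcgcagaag
Il18r1, chr1:40465811-40465969, plus strand: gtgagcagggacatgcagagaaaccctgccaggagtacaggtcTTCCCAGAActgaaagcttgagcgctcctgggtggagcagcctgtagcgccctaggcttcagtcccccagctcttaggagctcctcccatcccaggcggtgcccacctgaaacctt
Il18rap, chr1:40515112-40515361, plus strand: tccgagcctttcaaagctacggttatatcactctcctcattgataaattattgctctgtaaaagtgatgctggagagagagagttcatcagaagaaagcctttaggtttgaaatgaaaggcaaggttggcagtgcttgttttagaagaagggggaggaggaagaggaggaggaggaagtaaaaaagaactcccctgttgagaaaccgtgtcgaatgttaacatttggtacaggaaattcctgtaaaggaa
Positions count bases before the start as negative. The Il12rb2 window held TTCTCAGAA at position -123 and TCACAC at position -80. Of the 3 Il18r1 windows, those at starts 40465552, the start of the gene in the count table, and 40465621 held no match to any motif searched, and the third, chosen for display because it held matches, lies inside the gene as the count table places it. Its stretch held TTCCCAGAA at position -152 from an annotated start at 40466006, and its whole window also held TTCTGGGAA at position -219 and an NFAT match at position -33, both outside the stretch shown. No match to the motifs searched on both strands was found in the Il18rap window. These motifs are common: of 32817 promoter windows of 250 bases, 7.01% held the STAT motif and 12.3% the short T-box motif, while 1.12% held the full T-box motif (TCACACCT), 20.4% an NFAT motif (GGAAAA) and 6.75% an AP-1 motif (TGANTCA). A match describes letters only.

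Libraries held 16912085 to 34550183 counted read pairs, so that 3 pairs, used as the floor, correspond to 0.0868 to 0.177 CPM (a gene's count scaled to the size of its library). All members lay far above this in all 24 libraries, with 9.37 CPM as the lowest value. The sort labels held: Cd8a and Cd8b1 summed to 2090 to 2660 CPM in CD8 libraries and at most 29 CPM in CD4 libraries, and Cd4 and Cd40lg to 1310 to 1910 CPM in CD4 and at most 6.98 CPM in CD8 libraries. Over all genes without the members, 5 of 12 CD8 and 9 of 12 CD4 libraries were most like their own group (as deviations from the mean of the groups of a cell type), and none of the 6 CD8 libraries given 1 drug was. Over 8875 CD8 genes, CSA 6 correlated with the other CSA libraries at -0.58 and with the RUX libraries at 0.49. CD8 RUX 7 correlated with the other RUX libraries at -0.61, with the CSA libraries at 0.37 and with the RUX+CSA libraries at 0.40. The others of these groups lay at 0.04 (CSA 4), -0.24 (CSA 5), -0.19 (RUX 8) and -0.26 (RUX 9) with their own group. In CD4 cells untreated 15 correlated with its own group at -0.19 and with the RUX libraries at 0.55. These correlations run across genes, which are not independent replicates. Results in CD8 cells are therefore given with and without these 2 libraries, which were picked with earlier results of these data known and whose receptor levels are themselves among the values that set them apart. Whether the labels of these 2 libraries were exchanged was not tested, so the labels were kept as given, and every CD8 value for CSA or RUX alone rests on them.

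Compared per length of exon (read pairs per kilobase on the CPM scale, FPKM), Il18rap was the most abundant of the 4 mRNAs in untreated cells of both types, with 52.8 ± 4.09 FPKM in CD8 and 62.1 ± 2.59 in CD4 cells (SD, n = 3 pools, as throughout). Il12rb1 followed with 35.6 ± 2.10 FPKM in CD8 and 43.4 ± 4.59 in CD4 cells. Il18r1 stood at 20.7 ± 0.754 and 23.4 ± 1.21 FPKM. Il12rb2 was the scarcest in CD8 cells at 6.90 ± 2.53 FPKM and reached 23.8 ± 5.73 FPKM in CD4 cells. Group means of Il12rb2 ran from 20.3 CPM in untreated CD8 cells to 189 CPM in CD4 cells given CSA. Ordered by mean, its 4 CD8 groups came first (20.3 untreated, 24.1 RUX, 32.2 CSA and 33.8 CPM RUX+CSA), and neighbours among them overlapped. From RUX+CSA CD8 cells upward the order was CD4 RUX (46.2 CPM), CD4 untreated (70.1), CD4 RUX+CSA (109.6) and CD4 CSA (189), and in these 4 steps no library of the lower group reached the upper one. For Il12rb1 and Il18rap all 7 pairs of neighbours in the order overlapped, and for Il18r1 1 of 7 did not. These counts describe the values only, as the share over all genes was not computed.

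**Figure D1:**
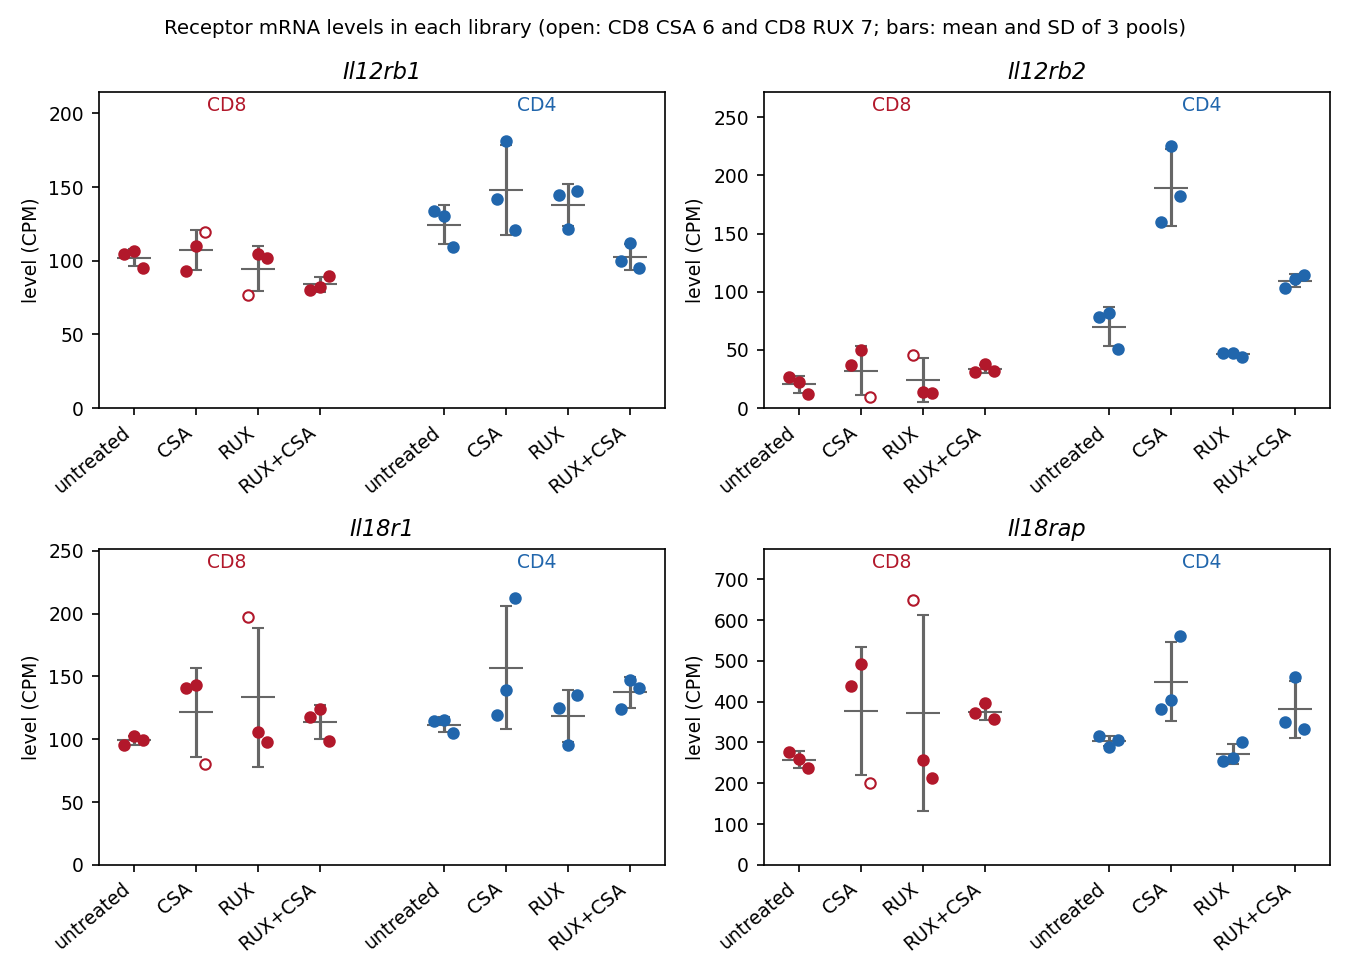
Levels of Il12rb1, Il12rb2, Il18r1 and Il18rap (vertical axes, CPM on TMM-scaled totals) in each of the 24 libraries by group (horizontal axes); circles are libraries, bars the mean and SD of 3 pools, and open circles CD8 CSA 6 and CD8 RUX 7. Il12rb2 in CD4 cells runs from 44.3 to 47.4 CPM with RUX to 160 to 225 CPM with CSA, and the open circles lie apart from the other libraries of their groups for Il12rb2, Il18r1 and Il18rap.

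CD4 cells from CSA-treated mice held more Il12rb2 mRNA than those of untreated mice, and RUX+CSA cells more than RUX cells. The 3 untreated pools stood at 77.9, 81.5 and 50.7 CPM and the 3 CSA pools at 160, 225 and 183 CPM. The 3 RUX pools read 47.4, 47.0 and 44.3 CPM and the 3 RUX+CSA pools 104, 111 and 114 CPM. The 4 groups did not overlap: RUX was lowest, then untreated, RUX+CSA and CSA. CSA against untreated gave a log2 fold change of 1.43 (SE 0.16, 2.70-fold, adjusted p = 0.000599 in edgeR's quasi-likelihood test), and Il12rb2 was the only member called there, where 1.48% of all 13175 genes tested were called. RUX+CSA against RUX gave 1.25 (SE 0.16, adjusted p = 0.00247), again with Il12rb2 as the only member called, against 0.782% of all genes. Both calls held without any 1 of the 6 libraries compared (adjusted p from 0.000365 to 0.00451 and from 0.0114 to 0.0214). With a spread estimated from the CSA and untreated libraries alone, the first missed the threshold (log2 1.43, adjusted p = 0.0571).

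Of the other CD4 comparisons of Il12rb2, RUX+CSA against untreated and against CSA lay near the threshold, and RUX against untreated did not. RUX+CSA against untreated gave 0.64 (SE 0.16, adjusted p = 0.0546), with 0 members and 1.77% of all genes called, and every RUX+CSA pool exceeded every untreated pool. Without CD4 untreated 14 the value was 0.76 (adjusted p = 0.0349), and DESeq2 also called it (0.65, adjusted p = 0.00545). Of 6 fits with 1 library left out, 1 called it, with adjusted p from 0.0349 to 0.155. RUX+CSA against CSA gave -0.79 (SE 0.16, adjusted p = 0.0534), with 0 members and 0.281% of all genes called in edgeR. DESeq2 called 2 members there, Il12rb2 (-0.79, adjusted p = 0.00077) and Il12rb1 (-0.53, adjusted p = 0.0329), and limma voom called Il12rb2 (-0.78, adjusted p = 0.0378). In edgeR neither was called in any of 6 fits with 1 library left out. Adjusted p ran from 0.0503 to 0.228 for Il12rb2 and from 0.0904 to 0.441 for Il12rb1. RUX against untreated gave -0.60 (SE 0.16, unadjusted p = 0.00183, adjusted p = 1). edgeR called 0 of 13175 genes in this comparison (0%), 548 had an unadjusted p under 0.05, DESeq2 called 12 and limma voom 0. Without CD4 untreated 15, the lowest untreated pool and the one that was most like the RUX libraries over all genes, Il12rb2 was called at -0.79 (adjusted p = 0.0352). That was 1 call in 6 fits with 1 library left out, where values ran from -0.79 to -0.48.

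The 4 CD4 groups form a crossed design of both drugs, so the effect of each drug was also estimated over 6 libraries with it against 6 without it. These contrasts were added after the values above had been seen. Il12rb2 was higher with CSA by 1.34 (SE 0.11, 2.53-fold, adjusted p = 2.05e-05), and kept the call without any 1 library (adjusted p from 6.78e-06 to 0.000213). It was lower with RUX, at 0.617 of the level (log2 -0.70, SE 0.11, adjusted p = 0.0224). The RUX call was lost without CD4 CSA 17 (-0.62, adjusted p = 0.06), RUX 19 (-0.70, 0.0726), RUX 20 (-0.70, 0.0645), RUX 21 (-0.68, 0.0597), RUX+CSA 22 (-0.68, 0.0688) or RUX+CSA 23 (-0.70, 0.0608). Of all genes tested, 7.16% were called for CSA and 0.25% for RUX. The interaction, which asks whether the CSA effect differed with and without RUX, was -0.19 (SE 0.22, adjusted p = 0.995), and edgeR called 0 members and 0% of all genes for it (629 genes with an unadjusted p under 0.05; 17 called by DESeq2 and 0 by limma voom).

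Il12rb2 shares genome with another gene, which bears on its counts. Of its 2947 counted exon bases, 819 (27.8%, chromosome 6, 67292018 to 67295311) lie under exons of Serbp1 on the opposite strand in GENCODE M21, the counting used no strand, and the shorter Serbp1 of the count table does not cover them, so that read pairs of both genes there cannot be told apart in the Il12rb2 count. Serbp1, which encodes an mRNA-binding protein, stood at 379 ± 42.3 CPM in untreated, 387 ± 19.0 in CSA, 393 ± 32.5 in RUX and 406 ± 12.0 CPM in RUX+CSA CD4 cells. Its CD4 effects were 0.04 (SE 0.07) for CSA and 0.06 (SE 0.07) for RUX over 6 libraries against 6, with no call in any CD4 comparison. These Serbp1 values leave out the shared bases, and the part of Serbp1 in the Il12rb2 values was not tested.

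The IL-18 receptor chains had smaller differences in CD4 cells. Il18rap read 315, 290 and 306 CPM in untreated pools, 382, 404 and 561 CPM with CSA, 255, 262 and 301 CPM with RUX and 350, 462 and 333 CPM with RUX+CSA. Both CSA-containing groups lay above the untreated and the RUX pools without overlap. Over 6 libraries against 6, Il18rap was higher with CSA by 0.53 (SE 0.10, 1.44-fold, adjusted p = 0.00943), a call kept without any 1 library (adjusted p from 0.00589 to 0.0344), which with Il12rb2 made 2 of 4 members called. The single comparisons missed the threshold: 0.56 (SE 0.15, adjusted p = 0.077) for CSA against untreated, 0.33 (SE 0.15, adjusted p = 0.267) for RUX+CSA against untreated and 0.49 (SE 0.15, adjusted p = 0.143) for RUX+CSA against RUX. Without CD4 CSA 16 the first was called (0.66, adjusted p = 0.0495). That was 1 call in 6 fits with 1 library left out, where adjusted p ran from 0.0495 to 0.337. For RUX against untreated the value was -0.16 (SE 0.15).

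Il18r1, the partner chain, read 114, 116 and 105 CPM in untreated CD4 pools and 119, 140 and 212 CPM with CSA. With RUX it read 125, 95.6 and 135 CPM and with RUX+CSA 124, 148 and 141 CPM. All CSA and RUX+CSA pools lay above all untreated pools, and the RUX pools overlapped both. No test was passed: CSA against untreated gave 0.49 (SE 0.18, adjusted p = 0.211), RUX+CSA against untreated 0.30 (SE 0.18, adjusted p = 0.444) and the CSA effect over 6 libraries against 6 was 0.35 (SE 0.13, adjusted p = 0.123). The last was called without CD4 CSA 16 (0.43, adjusted p = 0.0397). That was 1 call in 12 fits with 1 library left out, where adjusted p reached 0.247.

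Il12rb1 did not follow the other members in CD4 cells. It read 134, 130 and 109.5 CPM in untreated pools, 142, 181 and 121 CPM with CSA, 145, 122 and 148 CPM with RUX and 99.7, 112 and 95.2 CPM with RUX+CSA. The RUX+CSA pools were the lowest, below every CSA and RUX pool and overlapping the untreated pools. RUX+CSA against CSA gave -0.53 (SE 0.14, adjusted p = 0.164), against RUX -0.43 (SE 0.14, adjusted p = 0.161) and against untreated -0.28 (SE 0.14, adjusted p = 0.315). Its interaction of -0.68 (SE 0.20) had an unadjusted p of 0.00336 and an adjusted p of 0.797.

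**Figure D2:**
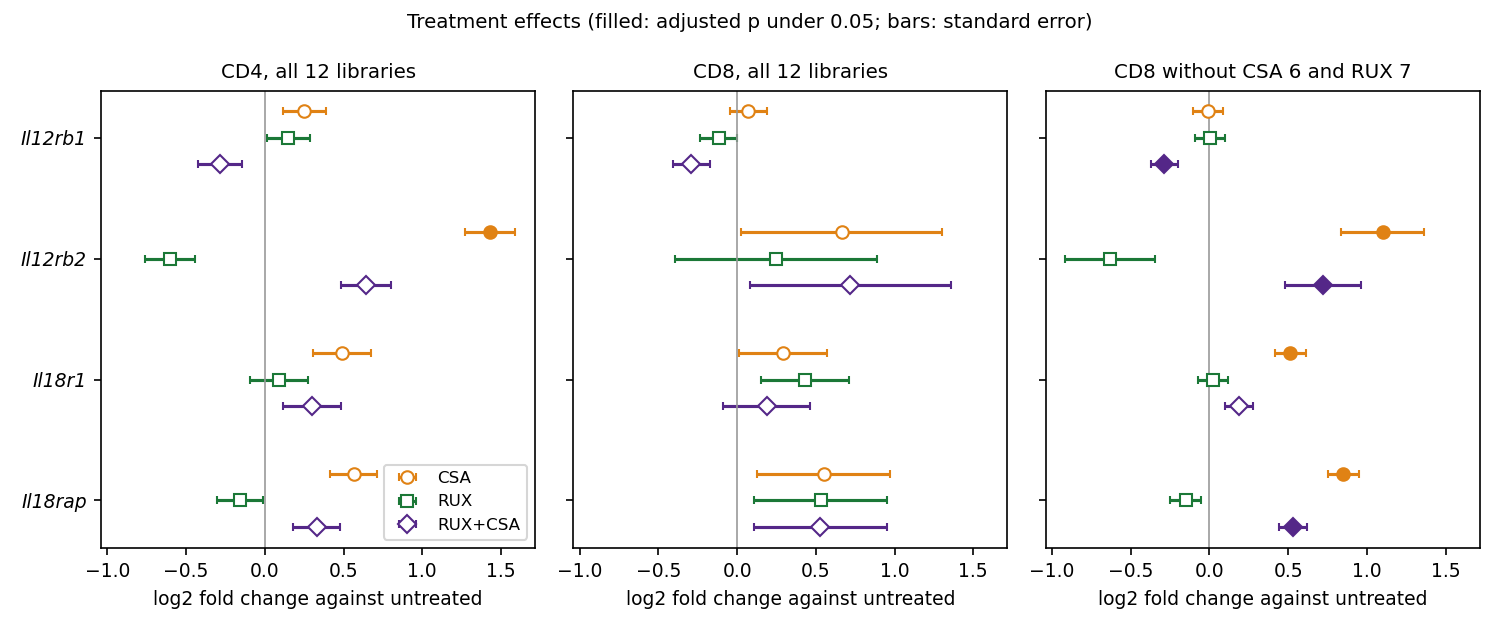
Log2 fold change of each receptor gene (vertical) for CSA, RUX and RUX+CSA against untreated (horizontal), in CD4 cells, in CD8 cells with all 12 libraries, and in CD8 cells without CSA 6 and RUX 7; bars are standard errors and filled symbols have an adjusted p under 0.05. With all libraries 1 of 24 values is filled, Il12rb2 with CSA in CD4 cells at 1.43, and the CD8 intervals narrow when the 2 libraries are left out.

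In CD8 cells no member was called with all libraries, and the values within the CSA and RUX groups were split. Il12rb2 read 26.5, 22.4 and 12.1 CPM in untreated pools, 37.0, 50.3 and 9.37 CPM with CSA, 45.9, 14.0 and 12.6 CPM with RUX and 31.4, 37.7 and 32.1 CPM with RUX+CSA. The lowest of these 12 values was CSA 6 and the second highest RUX 7. Il18rap read 277, 260 and 238 CPM in untreated pools, 439, 493 and 200 CPM with CSA, 648, 256 and 214 CPM with RUX and 372, 396 and 356 CPM with RUX+CSA. Here CSA 6 was the lowest and RUX 7 the highest of the 12. Il18r1 had the same extremes, with 95.3, 102 and 99.6 CPM untreated, 141, 143 and 80.4 CPM with CSA, 197, 106 and 97.7 CPM with RUX and 118, 124 and 98.5 CPM with RUX+CSA. Il12rb1 had the opposite ones, with 104, 107 and 95.3 CPM untreated, 92.9, 110 and 119 CPM with CSA, 77.0, 105 and 102 CPM with RUX and 80.4, 82.1 and 89.8 CPM with RUX+CSA, where CSA 6 was the highest and RUX 7 the lowest value.

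RUX+CSA was the CD8 treatment group with the least spread. Against untreated it gave 0.72 for Il12rb2 (SE 0.64, adjusted p = 0.456), 0.53 for Il18rap (SE 0.42, adjusted p = 0.403), 0.19 for Il18r1 (SE 0.28, adjusted p = 0.67) and -0.29 for Il12rb1 (SE 0.12, adjusted p = 0.111). The pools of Il12rb2 and Il18rap lay above and those of Il12rb1 below all untreated pools. The share of all genes whose pools did not overlap was not computed. In this comparison 15.7% of all 12684 genes were called and 0 members. Without CSA 6 and RUX 7, which belong to neither group but enter the estimate of spread, the fold changes stayed at 0.72, 0.53, 0.19 and -0.29, the standard errors fell to 0.24, 0.09, 0.09 and 0.09, and 3 members were called. These were Il12rb2 (adjusted p = 0.0461) and Il18rap (adjusted p = 0.00201), which were higher, and Il12rb1 (adjusted p = 0.0253), which was lower, while 30.4% of all genes were called. Serbp1, whose exons lie over those of Il12rb2, was also higher in this comparison (0.29, SE 0.09, adjusted p = 0.0393 with all libraries), and its part in the Il12rb2 value was not tested. A fit of the untreated and RUX+CSA libraries alone called 2 members, Il18rap (0.54, adjusted p = 0.00399) and Il12rb1 (-0.27, adjusted p = 0.0459). RUX+CSA against CSA gave -0.36 for Il12rb1 (SE 0.12, adjusted p = 0.247), with 0 members and 0.0788% of all genes called.

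The single drugs in CD8 cells depended on the 2 libraries. CSA against untreated gave 0.66 for Il12rb2 (SE 0.64), 0.55 for Il18rap (SE 0.42), 0.29 for Il18r1 (SE 0.28) and 0.07 for Il12rb1 (SE 0.12), and edgeR called 0 members and 0% of all genes (1233 with an unadjusted p under 0.05; 66 called by DESeq2 and 0 by limma voom). Without CSA 6 and RUX 7, 3 members were called: Il12rb2 at 1.10 (SE 0.26, adjusted p = 0.0434), Il18r1 at 0.52 (SE 0.10, adjusted p = 0.0122) and Il18rap at 0.85 (SE 0.10, adjusted p = 0.00105), with 4.81% of all genes called. In that fit the CSA group has 2 libraries. CSA 6 held the lowest CSA value of all 3 genes. Leaving it out therefore raises the CSA mean and lowers the spread by construction, and these calls follow in part from that choice. RUX against untreated gave 0.25 for Il12rb2 (SE 0.64) and 0.53 for Il18rap (SE 0.42), and these turned to -0.63 (SE 0.28, adjusted p = 0.667) and -0.15 (SE 0.10, adjusted p = 0.782) without the 2 libraries. edgeR called 0% of all genes for RUX with all libraries (744 with an unadjusted p under 0.05; 78 called by DESeq2 and 0 by limma voom).

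RUX+CSA against RUX gave 0.47 for Il12rb2 (SE 0.64) and 0.00 for Il18rap (SE 0.42) with all libraries, where edgeR called 0 members and 0% of all genes (2198 with an unadjusted p under 0.05; 505 called by DESeq2 and 16 by limma voom). Without the 2 libraries Il12rb2 was called at 1.35 (SE 0.28, adjusted p = 0.0162) and Il18rap at 0.68 (SE 0.10, adjusted p = 0.00293), 2 of 4 members, beside 11.6% of all genes. The CSA effect over 6 CD8 libraries against 6 was 0.57 for Il12rb2 (SE 0.45, adjusted p = 0.46) and 0.27 for Il18rap (SE 0.30, adjusted p = 0.6). With all libraries 2.36% of all genes (299) and 0 members were called for it, and with 1 library left out 0 to 1403 genes. Without the 2 libraries it was 1.23 for Il12rb2 (SE 0.19, adjusted p = 0.00213) and 0.77 for Il18rap (SE 0.07, adjusted p = 7.57e-05), and 3 members were called, with Il18r1 (0.34, adjusted p = 0.00603), beside 21.9% of all genes. For the RUX effect over 6 libraries against 6, 0 members and 0.56% of all genes were called, and for the interaction 0 members and 0% of all genes in edgeR (368 with an unadjusted p under 0.05; 1 called by DESeq2 and 0 by limma voom).

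CD8 cells held less Il12rb2 mRNA than CD4 cells of the same treatment in 3 of 4 comparisons. The tests treat CD8 and CD4 pools as independent, and the pool numbers do not tell whether the same mice gave both. The log2 difference was -1.79 in untreated cells (SE 0.50, adjusted p = 0.0186), -2.56 with CSA (SE 0.50, adjusted p = 0.00139) and -1.70 with RUX+CSA (SE 0.49, adjusted p = 0.0151), and all CD8 pools lay below all CD4 pools in each. With RUX it was -0.94 (SE 0.49, adjusted p = 0.199), and RUX 7 was the CD8 pool that overlapped the CD4 pools. Without RUX 7 alone the value was -1.80 (adjusted p = 0.0174), and without both libraries -1.80 (SE 0.26, adjusted p = 0.000126). RUX 7 held the highest CD8 RUX value, so leaving it out lowers the CD8 RUX mean by construction. Single libraries carried weight in the other comparisons as well. The untreated call was lost without CD8 untreated 3 (-1.53, adjusted p = 0.0894) or CD4 untreated 14 (-1.68, adjusted p = 0.0612), and the RUX+CSA call without CD8 RUX+CSA 10 (-1.65, adjusted p = 0.0579) or RUX+CSA 12 (-1.69, adjusted p = 0.0502). Serbp1 was higher in CD8 cells with CSA (0.24, adjusted p = 0.049) and RUX+CSA (0.32, adjusted p = 0.0111), and its part in these Il12rb2 values was not tested.

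Il12rb1 was lower in CD8 than in CD4 cells with CSA (-0.46, SE 0.14, adjusted p = 0.0161) and with RUX (-0.55, SE 0.14, adjusted p = 0.00836). In untreated cells the value was -0.29 (SE 0.14, adjusted p = 0.155) and with RUX+CSA -0.28 (SE 0.14, adjusted p = 0.131), and CD8 pools lay below CD4 pools in all 4 treatments. The CSA call was lost without CD8 CSA 4 (-0.38, adjusted p = 0.0858) or CD4 CSA 17 (-0.30, adjusted p = 0.113), and the RUX call without CD8 RUX 7 (-0.42, adjusted p = 0.0515). Il18r1 (-0.17, SE 0.25) and Il18rap (-0.23, SE 0.33) were not called in untreated cells, nor with any treatment. Thus 1, 2, 1 and 1 of 4 members were called in untreated, CSA, RUX and RUX+CSA cells, where 17.2%, 26.3%, 17.9% and 27.8% of all 13476 genes were called. With shares of this size, the count of members called is near the background.

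Whether a drug acted differently in the 2 cell types was tested as the difference of its effects. For Il12rb2 the CSA effect in CD8 minus that in CD4 cells was -0.77 (SE 0.68, adjusted p = 0.821), and -0.33 (SE 0.32, adjusted p = 0.866) without CSA 6 and RUX 7. edgeR called 0 members for the CSA, RUX and RUX+CSA effects, beside 0%, 0% and 0.0223% of all genes. Unadjusted p-values under 0.05 were held by 1005, 441 and 1906 genes, DESeq2 called 15, 2 and 208 and limma voom 0, 0 and 0. A difference between the cell types in the CSA effect on Il12rb2 was thus not detected, and its standard error of 0.68 is large beside the CD4 effect of 1.43.

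The balance of the chains was compared per exon length. Il12rb2 relative to Il12rb1 was 0.543 ± 0.0825 in untreated CD4 cells, 1.26 ± 0.19 with CSA, 0.329 ± 0.0429 with RUX and 1.05 ± 0.105 with RUX+CSA. In the CSA group the ratio was above 1 in all 3 pools (1.10, 1.21 and 1.47), and with RUX+CSA it was 1.01, 0.966 and 1.17, and these were the 2 of 8 groups whose mean was above 1. CD8 ratios were lower, at 0.192 ± 0.0631 untreated, 0.303 ± 0.198 with CSA, 0.277 ± 0.263 with RUX and 0.392 ± 0.0503 with RUX+CSA, with 0.0766 in CSA 6 and 0.581 in RUX 7. Il18rap relative to Il18r1 stayed between 2.28 and 3.25 in all 8 group means, with single libraries from 1.99 to 3.54. A ratio above 1 compares mRNA per length and says nothing of protein.

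**Figure D3:**
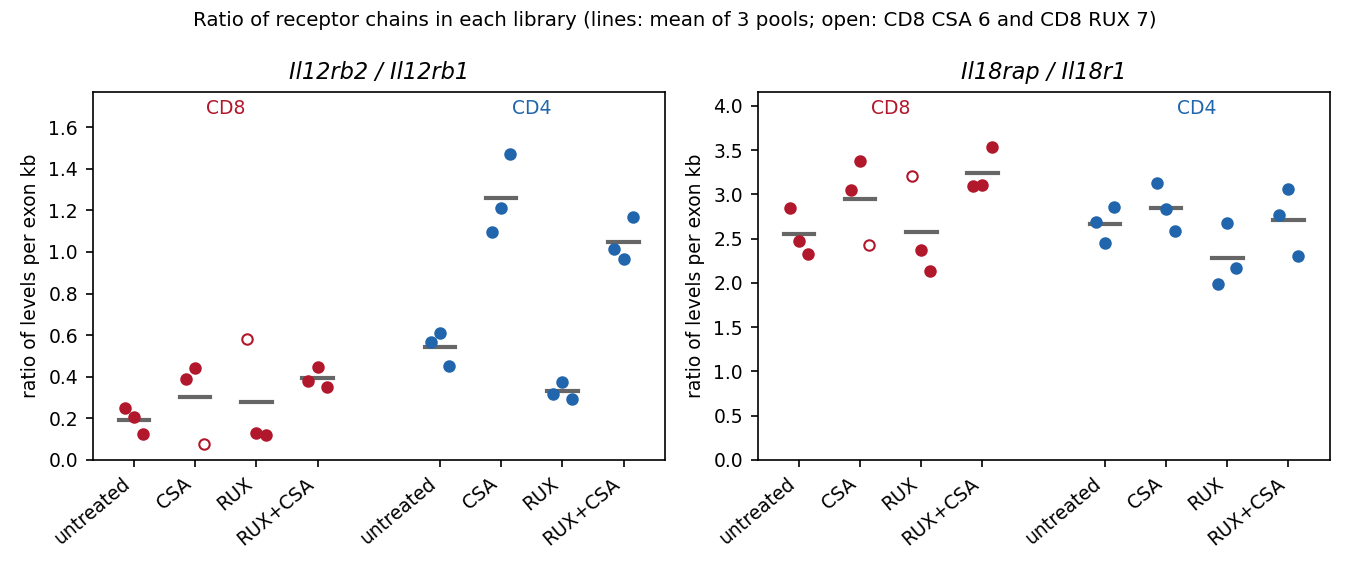
Ratio of Il12rb2 to Il12rb1 (left) and of Il18rap to Il18r1 (right) per exon kilobase in each library by group; circles are libraries, lines the mean of 3 pools, open circles CD8 CSA 6 and CD8 RUX 7. The left ratio in CD4 cells moves from a mean of 0.329 with RUX to 1.26 with CSA, and the right ratio stays between 1.99 and 3.54 in all libraries.

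Across the 12 libraries of a cell type, levels of 3 members went together. In CD8 libraries Pearson's r of log2 CPM was 0.93 between Il12rb2 and Il18rap, 0.93 between Il18r1 and Il18rap and 0.78 between Il12rb2 and Il18r1. Il12rb1 correlated with these at -0.52 to -0.61. In CD4 libraries the same pairs gave 0.81, 0.81 and 0.60, and Il12rb1 lay between -0.05 and 0.13. These are descriptions over 12 libraries of 4 treatment groups, in which genes of 1 library share its treatment and depth, and in CD8 cells CSA 6 and RUX 7 lie near the ends of the range. Il18r1 and Il18rap are neighbours on chromosome 1, whereas Il12rb2 lies on chromosome 6.

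**Figure D4:**
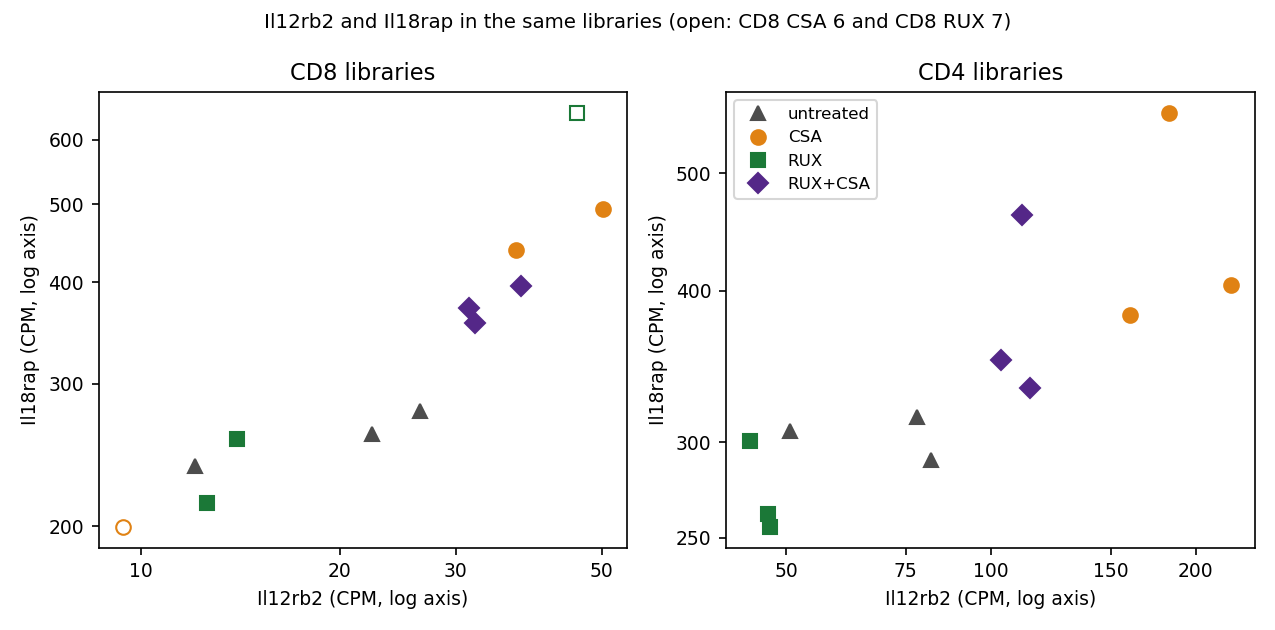
Il12rb2 (horizontal, CPM, log axis) against Il18rap (vertical, CPM, log axis) in the 12 CD8 and the 12 CD4 libraries; symbols mark the treatment and open symbols CD8 CSA 6 and CD8 RUX 7. In CD8 cells the open CSA symbol lies at the low end (9.37 and 200 CPM) and the open RUX symbol at the high end (45.9 and 648 CPM), and r is 0.93 in CD8 and 0.81 in CD4 cells.

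The genes with the pattern most like each member were found by Pearson's r over the 12 libraries of a cell type, among 8643 genes in CD8 and 8854 in CD4 cells. In CD4 cells Il12rb2 was most like Slamf7 (0.975), a receptor of cytotoxic lymphocytes, Fbxw7 (0.956), a ubiquitin ligase subunit, and Hopx (0.95), a homeodomain protein of effector T helper 1 cells. Il18rap was most like Clip1 (0.969), Acss1 (0.94) and Nfic (0.94), Il18r1 like Vamp2 (0.931), the activation marker Cd69 (0.917) and Zbtb7a (0.905), and Il12rb1 like the adhesion molecule Icam1 (0.884) and Kmt2a (0.87). In CD8 cells Il12rb2 was most like Gramd3 (0.988), Prkd3 (0.976) and Arhgef2 (0.976). Il18rap was most like Nrarp (0.987), a regulator of Notch signalling, Ifngr1 (0.973), the ligand-binding chain of the interferon-gamma receptor, and Pxylp1 (0.973). Nrarp was also among the 3 genes most like Il18r1 (0.932), with Orai2 (0.959) and Ahnak (0.932). Il12rb1 was most like Serpina3g (0.905), Serpina3f (0.895) and Socs1 (0.894), the last a feedback inhibitor of JAK signalling.

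Of the ligands, Il12a was at most 0.919 CPM and Il12b at most 0.0452 CPM in any group mean. The highest Il12a mean, in CD4 RUX+CSA cells, rested on 68 read pairs over 3 libraries. Il18 was at 10.5 ± 5.89 CPM in untreated CD4 cells and 2.42 ± 0.94 CPM in untreated CD8 cells, and its decoy Il18bp at 15.3 ± 11.5 and 4.97 ± 1.38 CPM. Of 5 IL-12 family ligands, 2 could be tested in CD8 and 3 in CD4 cells, and of 7 genes of the IL-18 ligand side 7 and 6, and 0 of these were called against untreated in either cell type. Il23r, the partner of Il12rb1 in the IL-23 receptor, was at 2.17 ± 1.67 CPM in untreated CD4 and 0.443 ± 0.356 CPM in untreated CD8 cells (log2 -2.25, SE 0.76, adjusted p = 0.0451), and 0 of 8 other receptors of both families were called with any treatment in CD4 cells. With CSA, RUX and RUX+CSA, 1.48%, 0% and 1.77% of all genes were called in CD4 cells and 0%, 0% and 15.7% in CD8 cells. Counts of 0 on lists this short are near that background.

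The kinases and the STAT protein of the IL-12 pathway passed the test with no treatment. Stat4 had a mean of 323 CPM in untreated CD8 and 324 CPM in untreated CD4 cells, and its largest difference from untreated was 0.26 (SE 0.09, adjusted p = 0.0687) with RUX+CSA in CD8 cells. Jak2 and Tyk2, the kinases of the 2 chains, were not called against untreated in either cell type. Of 11 IL-12 signalling genes 0 rose and 2 fell with RUX+CSA in CD8 cells, the SOCS family member Cish (-1.60, adjusted p = 0.0222) and the phosphatase Ptpn11 (-0.60, adjusted p = 0.0143), where 15.7% of all genes were called, with a list median of -0.04 beside -0.02 over all genes. In CD4 cells 1 fell with RUX+CSA, Socs2 (-1.37, adjusted p = 0.044), and none with CSA alone, where the list median was -0.03 (0 over all genes). Of all genes 1.77% were called with RUX+CSA and 1.48% with CSA in CD4 cells.

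Among 18 IL-18 signalling genes, Irak3, an inhibitory member of the IRAK family, was higher in CD4 cells with CSA (1.07, SE 0.25, adjusted p = 0.0453) and in CD8 cells with RUX+CSA (1.98, SE 0.37, adjusted p = 0.00906), from 12.7 to 26.7 CPM and from 2.91 to 11.7 CPM. The other calls were the NF-kappa-B subunit Nfkb1 in CD4 cells with RUX+CSA (0.51, adjusted p = 0.0143) and the adaptor Tab2 in CD8 cells with RUX+CSA (-0.67, adjusted p = 0.0102). Of all genes 1.48% were called with CSA and 1.77% with RUX+CSA in CD4 cells, and 15.7% with RUX+CSA in CD8 cells. Irak3 is also expressed in macrophages, whose 8 markers summed to 462 to 2280 CPM in CD4 CSA and 307 to 1380 CPM in CD4 untreated libraries, and to 593 to 754 against 59.1 to 196 CPM in CD8 RUX+CSA and untreated libraries. The part of these cells in the Irak3 values was not tested.

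Of 10 transcription factors known to act on the receptor genes, 1 rose with CSA in CD4 cells and 0 fell, beside 1.48% of all genes called (list median 0.18, all genes 0). It was Bach2, a repressor of effector programmes, which went from 5.98 ± 1.95 to 24.1 ± 5.55 CPM (2.02, SE 0.27, adjusted p = 0.00213) and to 36.1 ± 5.64 CPM with RUX+CSA (2.60, adjusted p = 0.000605). Tbx21, which encodes T-bet, was higher with CSA over 6 CD4 libraries against 6 (0.36, SE 0.09, adjusted p = 0.0227) and at 0.28 (adjusted p = 0.274) for CSA against untreated. In CD8 cells 3 of 9 tested factors rose with RUX+CSA and 0 fell, beside 15.7% of all genes called (list median 0.45, all genes -0.02): Tcf7, a factor of naive and memory cells (1.25, adjusted p = 0.0148), Hlx (1.06, adjusted p = 0.0335) and Eomes (0.56, adjusted p = 0.0164).

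Of 22 genes known to respond to IL-12 or IL-18 in T cells, 3 rose with CSA in CD4 cells and 0 fell, the protease gene Gzmb (1.43, adjusted p = 0.0112), the chemokine Ccl5 (1.38, adjusted p = 0.000247) and the proprotein convertase Furin (0.64, adjusted p = 0.0386). Of all genes 1.48% were called there, and the list median was 0.35 beside 0 over all genes. With RUX+CSA 1 of the 22 rose in CD4 cells and 0 fell, where 1.77% of all genes were called. Like Il12rb2, Gzmb was higher with CSA and lower with RUX over 6 libraries against 6 (1.20 and -1.06, adjusted p = 0.00141 and 0.0224). Of the 22 genes, 4 rose and 0 fell with CSA over these libraries, beside 7.16% of all genes called. With RUX 1 fell and 1 rose, the opposite direction, beside 0.25% of all genes. Ifng was not called: it stood at 127 ± 41.1 CPM in untreated, 149 ± 55.6 in CSA, 164 ± 61.5 in RUX and 190 ± 6.18 CPM in RUX+CSA CD4 cells (0.23, SE 0.35, adjusted p = 0.801 for CSA against untreated). In CD8 cells with RUX+CSA 0 of 22 rose and 2 fell, the death ligand Fasl (-0.59, adjusted p = 0.0324) and Icam1 (-0.39, adjusted p = 0.032), beside 15.7% of all genes called. Ifng was there 0.03 from untreated (SE 0.31, adjusted p = 0.964).

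Markers of other cells, among them cells that carry these receptors, moved with some of the results. NK cells express Il12rb2, Il18r1 and Il18rap. The 10 NK markers, several of which T cells also express, summed to 155 to 208 CPM in untreated, 447 to 720 with CSA, 141 to 213 with RUX and 503 to 643 CPM with RUX+CSA in CD4 libraries, and in CD8 libraries to 828 in CSA 6 and 2380 in RUX 7 beside 2070 and 2360 in the other CSA libraries and 813 and 843 in the other RUX libraries. Of the 4 markers most restricted to NK cells, Klra4 had no read pair in any of the 24 libraries and Klra8 none in 23, Ncr1 reached at most 45 read pairs, and Klrb1c was found in all libraries, with up to 640 read pairs. In CD8 libraries the sum of the 4 followed the split of Il12rb2 and Il18rap: it was 31.3 CPM in RUX 7 beside 0.194 and 0.319 in RUX 8 and 9, and 0.388 CPM in CSA 6 beside 11.9 and 8.62 in CSA 4 and 5. In untreated CD8 libraries it was 0.403 to 5.97 CPM and with RUX+CSA 0.926 to 1.25 CPM. In CD4 libraries it was 0.11 to 5.13 CPM in untreated, 3.4 to 24.7 with CSA, 0.0611 to 0.9 with RUX and 2.26 to 5.04 CPM with RUX+CSA. Basophils and mast cells carry Il18r1 and Il18rap, and their 6 markers summed to 109 to 170 CPM in RUX+CSA, 35.5 to 88.1 in CSA, 48.3 to 86.6 in RUX and 40.2 to 55.9 CPM in untreated CD4 libraries. Il1rl1, which is among the 6, averaged 48.9 CPM in untreated, 32.0 with CSA, 40.8 with RUX and 34.0 CPM with RUX+CSA (plain totals). In CD4 untreated 13 and 14, 4 and 5 of the 6 had no read pair. In CD8 libraries the basophil and mast cell markers summed to 49.9 to 77.3 CPM with RUX+CSA and 7.92 to 12.5 CPM untreated. With CSA their sum was 9.35 to 42.6 CPM and with RUX 12.4 to 37.6 CPM. The 5 regulatory T cell markers summed to 420 to 444 CPM with CSA and 345 to 469 CPM with RUX+CSA, against 469 to 615 CPM in untreated CD4 libraries. The sum of the 6 dendritic cell markers also followed the split in CD8 libraries, with 308 CPM in RUX 7 beside 51.9 and 43 in the other RUX libraries, 43.9 CPM in CSA 6 beside 231 and 330 in the other CSA libraries, 229 to 259 CPM with RUX+CSA and 48.9 to 66.9 CPM untreated. Of the 6, 2 had no read pair in RUX 7, 3 in RUX 8 and 2 in CSA 6, so fewer genes made up these sums. In CSA 4 and RUX 9 2 had none as well, so the zeros did not set CSA 6 or RUX 7 apart. The sums do not tell which of the 6 genes carried them. In CD4 libraries the dendritic cell markers summed to 30.9 to 65.1 CPM with CSA, 34.3 to 36.3 with RUX+CSA, 21.1 to 22.9 with RUX and 16.7 to 23.9 CPM untreated. The 8 erythroid markers summed to 148 to 256 CPM with CSA, 82.3 to 283 with RUX+CSA, 24 to 46.7 with RUX and 1.73 to 44.4 CPM in untreated CD4 libraries. The 10 neutrophil markers ran from 4.41 CPM in CD4 untreated 14 to 16600 CPM in CD4 CSA 16, with 4020 to 5270 CPM in CD8 RUX+CSA and 11.2 to 1450 CPM in CD8 untreated libraries. The part of these cell types in the receptor levels was not tested.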

How the data were processed

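The authors deposited raw read counts, whole numbers of read pairs per gene over exons, made with featureCounts 2.0.3 in 1 call for all libraries with no strand option, per the file headers. Alignment used STAR and mm10, per the submitters' processing notes; other settings are not given in the sources used here. In R 4.3.3, filterByExpr of edgeR 4.0.16 took out genes with low counts, totals were scaled by TMM, and group means were fitted and compared by the quasi-likelihood F test (robust) on 12 CD8 libraries (12684 genes), 12 CD4 libraries (13175) and all 24 (13476). P-values are two-sided, Benjamini-Hochberg adjusted over all genes of a fit, and called under 0.05. Where no tool is given, the value is that of edgeR. Statements that pools did not overlap describe the values only, and the share of all genes without overlap was not computed. SE is the log2 fold change over the root of F. CPM and FPKM use TMM-scaled totals and the exon length of the count table, and marker sums plain totals. Correlations use log2 CPM with a prior count of 2 and, for likeness, genes with a mean of at least 3. Pools are the replicates and p-values measure the spread between them; read pairs carry no molecular identifiers, so the floor of 3 covers counting error only. Members, lists, named genes and the 2 libraries left out were chosen with earlier results of these data known. From each list, genes called against untreated were named, with Ifng, Tbx21, Stat4 and Il23r always. The 1 gene of the 22 that rose with RUX+CSA in CD4 cells was not named for that comparison. Serbp1, Il12a, Il12b, Il18, Il18bp, Jak2 and Tyk2 were named after their values were seen. Of 23 comparisons, 6 (the drug effects over 6 libraries against 6 and the interactions) were added after the data were seen. Alternatives were DESeq2 1.42.0, limma voom 3.58.1, other size factors, no filter, fewer groups and libraries left out. No Il12rb1 promoter sequence was used here. Of the genes picked for likeness, 1 is not reported here.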

Additional observations from a re-analysis of the deposited data

How the results depend on the processing

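Over 578 recomputed fold changes of the members, 518 kept direction and side of the threshold, 15 lost the call, 30 gained it and 15 changed sign. Sign changes came from CD8 cells: without CSA 6 and RUX 7, Il12rb1 with CSA moved from 0.07 to -0.01, Il12rb2 with RUX to -0.63 and Il18rap with RUX to -0.15, and Il18rap in RUX+CSA against RUX, at -0.003 in edgeR, was 0.013 with other size factors or DESeq2, 0.012 with no filter, 0.18 with limma voom and 0.68 without the 2 libraries. With libraries left out 1 at a time these ran from -0.002 to 0.17, -0.63 to 0.56, -0.15 to 0.81 and -0.28 to 0.68. The count of members called changed as follows. Without CSA 6 and RUX 7 it rose from 0 to 3 for CD8 RUX+CSA against untreated, CSA against untreated and the CSA effect, from 0 to 2 for RUX+CSA against RUX, and from 1 to 2 for CD8 against CD4 with RUX. With only the groups compared it was 2 for CD8 RUX+CSA against untreated, 0 for CD4 CSA against untreated, 1 for CD4 RUX+CSA against CSA, 3 for CD4 RUX+CSA against RUX, 1 for CD8 against CD4 with CSA and 2 with RUX+CSA. DESeq2 called 1 for CD4 RUX+CSA against untreated and 2 each for CD4 CSA against untreated, RUX+CSA against CSA and RUX+CSA against RUX. Without a filter it was 1 for CD4 RUX+CSA against untreated, 2 for CSA against untreated and 1 for RUX+CSA against CSA, and limma voom called 1 in the last. Leaving out 1 library gave 0 to 1 for CD4 RUX+CSA and RUX against untreated, the CD4 RUX effect, and CD8 against CD4 untreated and with RUX+CSA, and 1 to 2 for CD4 CSA against untreated and CD8 against CD4 with CSA. Without TMM, Il18rap in CD8 RUX+CSA cells had a mean of 354.6 CPM instead of 374.9. Genes called over all genes moved widely: 13 to 655 for CD4 CSA against untreated, 58 to 883 for CD4 RUX+CSA against untreated, 35 to 560 for RUX+CSA against RUX, 1 to 201 for RUX+CSA against CSA, 0 to 15 for RUX against untreated, 456 to 1674 for the CD4 CSA effect, 0 to 210 for the CD4 RUX effect, 426 to 3893 for CD8 RUX+CSA against untreated, 0 to 1481 for CD8 RUX+CSA against RUX (0 to 255 with 1 library left out), 0 to 616 for CD8 CSA against untreated, 0 to 2802 for the CD8 CSA effect (0 to 1403) and 0 to 573 for the CD8 RUX effect (0 to 197). Where an alternative uses fewer libraries or tests other genes this is its construction, and otherwise the cause was not tested. No paired analysis was done, as the pools are numbered 1 to 24 across groups and no number is shared. The numbers do not tell whether CD8 and CD4 pools came from the same mice. Tests between the cell types treat their libraries as independent. Depth (16912085 to 34550183 read pairs) put all members far above the floor; the part of the number of pools in the errors was not tested.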
